A study of Mus musculus with 12 samples.

Results

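The hemoglobin genes and Alas2 were examined in cardiac tissues from 12 mice, 3 in each of 4 groups. The set holds 5 of the 55885 genes listed, matched by gene symbol: the alpha chain genes Hba-a1 and Hba-a2, the beta chain genes Hbb-bs and Hbb-bt, and Alas2. They were chosen by their low values in the CDDP hearts against the Saline hearts, so this difference is described here without a test. All 5 passed the filter of 1 TPM in at least 3 hearts.

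The Saline and CDDP groups were wild type mice, and the STING-/- and STING-/-+CDDP groups carried the Tmem173-/- genotype, a knockout of STING (encoded by Sting1, formerly Tmem173). The mice were males, 8 weeks old, labelled C57BL/6 (C57BL/6J in the methods). CDDP is cisplatin, a platinum drug used against tumors, given intraperitoneally at 6 mg/kg on days 1, 8 and 15. The hearts without cisplatin are labelled untreated, whereas the methods describe a saline group. The methods give 6 mice a group, of which 3 were sequenced as single hearts, and how these were picked is not given in the sources used here. Wild type and STING-/- mice came from different suppliers, so genotype and source of the animals cannot be told apart. Sting1 was at 5.62 to 22.1 TPM in the 6 wild type hearts and still at 2.87 to 5.96 TPM in the 6 STING-/- hearts. Whether these reads lie in the deleted part of the gene was not tested.

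Hemoglobin, the oxygen carrier of the blood, is a tetramer of paired alpha and beta chains, each holding a heme. Alas2 is the red-cell form of 5-aminolevulinate synthase, the first enzyme of heme synthesis, whereas Alas1 is the form of most other tissues. Red cell precursors make hemoglobin and Alas2 in the bone marrow. Young red cells that have shed the nucleus, the reticulocytes, carry the remaining globin mRNA into the circulation. Blood held in the vessels of a tissue is a known source of such mRNA. Whether the hearts were rinsed or perfused is not given in the sources used here. In bulk tissue, fewer red cells and less mRNA per red cell cannot be told apart.

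In GENCODE M21 (GRCm38), Hba-a1 (ENSMUSG00000069919) lies at chr11:32283511-32284465 and Hba-a2 (ENSMUSG00000069917) at chr11:32296489-32297298, both on the plus strand and 12023 bases apart. Hbb-bs (ENSMUSG00000052305) lies at chr7:103826534-103828096 and Hbb-bt (ENSMUSG00000073940) at chr7:103812524-103813996, both on the minus strand and 12537 bases apart. Each globin gene has 3 exons. Alas2 (ENSMUSG00000025270) has 11 exons at chrX:150547375-150570638 on the plus strand and overlaps Apex2 and Mir3620 on the minus strand. Whether the counting used strand is not given in the sources used here. The coding sequences differ at 1 of 426 bases between Hba-a1 and Hba-a2 and at 1 of 441 bases between Hbb-bs and Hbb-bt. Of all 100-base stretches, 56.5% of those in the Hba-a1 transcript also occur in Hba-a2 and 54.8% of those in Hbb-bt also occur in Hbb-bs. The division of reads within each pair is therefore an estimate by the quantification program, and sums over a pair are firmer than its single genes.

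The 150 bases before the RefSeq start (GRCm38.p6 table) are shown because the 5 genes moved together between hearts. All 5 genes matched an entry by symbol. Capitals mark exact matches of 4 promoter motifs on either strand. These are the CACCC box (letters CACCC, on the other strand read as GGGTG), the CCAAT box (letters CCAAT, on the other strand read as ATTGG), the TATA box (letters ATATAA) and the GATA box (letters GATAA, on the other strand read as TTATC). In Hbb-bt, 1 CCAAT box on the minus strand runs directly into 1 on the plus strand, and the 3 CACCC boxes of Alas2 follow each other directly. No motif overlaps another. The Hba-a1 window (chr11:32283522-32283671, plus strand) is not printed, since its entry shares an unbroken run of 297 of 300 bases with that of Hba-a2. The regions are chr11:32296342-32296491 and chrX:150547267-150547416 on the plus strand, and chr7:103827929-103828078 and chr7:103813924-103814073 on the minus strand. For all genes but Hba-a2, the GENCODE model begins well upstream of the RefSeq start.
Hba-a2: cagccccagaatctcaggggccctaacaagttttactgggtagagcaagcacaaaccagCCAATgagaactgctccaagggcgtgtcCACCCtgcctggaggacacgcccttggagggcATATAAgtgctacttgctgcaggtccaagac
Hbb-bs: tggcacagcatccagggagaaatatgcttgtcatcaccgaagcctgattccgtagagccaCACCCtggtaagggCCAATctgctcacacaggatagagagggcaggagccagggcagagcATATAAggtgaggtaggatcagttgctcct
Hbb-bt: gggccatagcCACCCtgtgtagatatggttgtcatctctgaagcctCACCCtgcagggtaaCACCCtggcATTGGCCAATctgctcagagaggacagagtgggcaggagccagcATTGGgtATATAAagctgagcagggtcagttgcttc
Alas2: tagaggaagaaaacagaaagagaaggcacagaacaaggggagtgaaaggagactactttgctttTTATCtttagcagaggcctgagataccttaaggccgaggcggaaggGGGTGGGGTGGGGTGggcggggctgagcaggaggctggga

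All 4 globin windows held a CACCC box, a CCAAT box and a TATA box, a combination found in 0.4231% of the 32851 mouse promoter windows of the same length. Hbb-bt had 3 CACCC boxes and 3 CCAAT boxes, and the other globin genes had 1 of each. The Alas2 window held 1 GATA box and 3 CACCC boxes, and neither a CCAAT box nor a TATA box. Singly, a CACCC box occurred in 37.43%, a CCAAT box in 24.5%, a GATA box in 13.35% and a TATA box in 5.354% of windows. These are matches of letters, and binding of a factor was not measured.

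Hemoglobin mRNA was highest in the Saline hearts. In hearts 1, 2 and 3, the TPM of the 4 hemoglobin genes summed to 6796, 4133 and 9289 in the Saline group and to 1270.4, 141 and 42.0 in the CDDP group. The STING-/- group had 1262, 1462 and 263, and the STING-/-+CDDP group 101, 81.5 and 310.0. Every Saline heart was above all 9 other hearts, and the 3 groups below overlapped one another. Hemoglobin made up 0.413% to 0.929% of all TPM in the Saline hearts and 0.0042% to 0.146% in the others. TPM is corrected for gene length and adds up to 1 fixed total per heart, so levels of different genes may be compared within a heart.

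The alpha chain genes were abundant in the Saline hearts. In hearts 1, 2 and 3, Hba-a1 was at 961, 818 and 1142 TPM in the Saline group, 189, 27.1 and 9.61 in CDDP, 155, 212 and 38.4 in STING-/- and 19.6, 15.9 and 43.7 in STING-/-+CDDP. Hba-a2 was at 2601, 1121 and 3389.5 TPM in Saline, 487, 47.5 and 15.7 in CDDP, 451, 527 and 95.01 in STING-/- and 33.2, 24.5 and 108 in STING-/-+CDDP. For both genes the lowest Saline heart was above the highest heart of every other group. CDDP heart 1 was several-fold above the other CDDP hearts, and heart 3 of the STING-/- group was below heart 3 of the STING-/-+CDDP group.

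The beta chain genes separated the Saline hearts in the same way. Hbb-bs, the member with the highest level in 11 of the 12 hearts, was at 2788 TPM, 1949 TPM and 4181 TPM in Saline, 574, 58.2 and 15.0 in CDDP, 578, 640.4 and 115 in STING-/- and 42.6, 36.3 and 141 in STING-/-+CDDP. Hbb-bt was at 446, 245 and 577 TPM in Saline, 20.5, 7.85 and 1.71 in CDDP, 78.2, 81.8 and 14.8 in STING-/- and 5.11, 4.89 and 17.0 in STING-/-+CDDP. Ranked among all genes of a heart, Hbb-bs stood at 25, 33 and 48 in the Saline hearts, and at 221, 1450 and 5173 in CDDP hearts 1, 2 and 3. Its rank was 182 to 724 in the STING-/- hearts and 573 to 2195 in the STING-/-+CDDP hearts.

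Alas2 was far lower than the globin genes throughout. It was at 18.3, 12.8 and 27.8 TPM in Saline, 0.79, 0.56 and 0 in CDDP, 3.93, 3.91 and 0.49 in STING-/- and 0.20, 0.40 and 1.10 in STING-/-+CDDP. Its Saline hearts did not overlap any other group either, and its CDDP and STING-/-+CDDP hearts were all at about 1 TPM or less. Here the added 1 of the log2(TPM + 1) scale makes differences smaller than they are on the TPM scale.

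**Figure D1:**
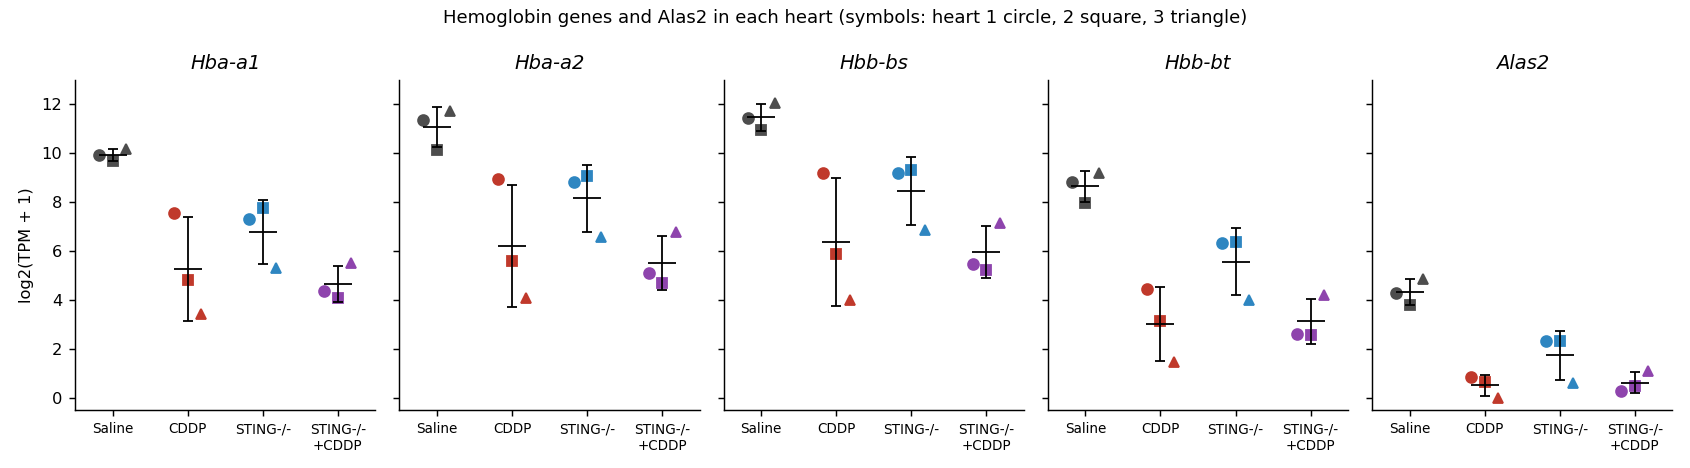
Level of each gene as log2(TPM + 1) (vertical axis) in the 4 groups (horizontal axis). Each symbol is 1 heart and the bars are mean ± SD (n = 3). The Saline hearts lie above all other hearts in each of the 5 panels. For all 4 globin genes, CDDP heart 1 is the highest and STING-/- heart 3 the lowest of its group.

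As a description of the values that chose the genes, the difference between CDDP and Saline in log2(TPM + 1) was -4.65 (SE 0.89) for Hba-a1 and -3.81 (SE 0.45) for Alas2. For Hba-a2, Hbb-bs and Hbb-bt it was -4.87, -5.12 and -5.64. The summed hemoglobin TPM was 32.7-fold lower by the geometric means, 83.2-fold lower without CDDP heart 1 and 15.1-fold lower without CDDP heart 3. All 5 genes had groups that did not overlap, as did 17.1% of tested genes in this direction. Of all 13815 tested genes, 10.4% passed as lower and 8.52% as higher in the CDDP hearts by limma at an adjusted p under 0.05.

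Cisplatin in STING-/- mice was the only comparison tested for these genes, since the values that chose them came from the CDDP and Saline hearts. The choice was still made with earlier results of these data known. The limma model also pooled the spread within all groups, so the CDDP and Saline hearts helped to set its p-values. For Hbb-bs the SE was 1.09 both here and in CDDP against Saline. Lower levels were measured for all 5 in the STING-/-+CDDP hearts than in the STING-/- hearts, but none passed the threshold. The difference in log2(TPM + 1) was -2.13 for Hba-a1 (95% confidence interval -4.07 to -0.19, limma's Benjamini-Hochberg adjusted p = 0.321). It was -2.64 for Hba-a2 (-4.99 to -0.28, limma adjusted p = 0.308) and -2.51 for Hbb-bs (-4.89 to -0.14, limma adjusted p = 0.341). Hbb-bt gave the smallest p, with a difference of -2.44 (-4.17 to -0.71, limma adjusted p = 0.188, 0.00991 before adjustment). For Alas2 it was -1.12 (-2.11 to -0.12, limma adjusted p = 0.307). The count was 0 of 5 by limma, and 5 of 5 at an unadjusted p under 0.05, where 9.79% of all tested genes were lower at that threshold. The 5 genes moved together between hearts and the near-identical ones share reads, so such counts are not counts of separate observations. After adjustment, 0.68% of all tested genes passed as lower and 0.253% as higher.

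The groups overlapped for all 5 genes, because STING-/- heart 3 was below STING-/-+CDDP heart 3, whereas 16.9% of tested genes were lower without overlap. The median difference of the 5 genes was -2.44, beside -0.11 over all tested genes. The summed hemoglobin TPM was 5.76-fold lower by the geometric means (two-sided exact permutation test of 3 hearts against 3, p = 0.2, where 0.1 is the smallest possible p). It was 9.95-fold lower without STING-/- heart 3 and 8.68-fold lower without STING-/-+CDDP heart 3. Leaving out STING-/- heart 1 or 2 made the fall smaller, at 4.55-fold and 4.22-fold. The same held for STING-/-+CDDP heart 1 or 2, at 4.94-fold and 4.45-fold. Adjusted over the 5 quantities tested this way, p was 0.5. When limma weighted hearts by their quality (arrayWeights), 4 of the 5 genes passed, all but Alas2, and 2.79% of all tested genes passed as lower.

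Among hearts without cisplatin, hemoglobin mRNA was lower in the STING-/- group than in the Saline group. This comparison shares the Saline hearts with the one that chose the genes and is given without a test. The difference in log2(TPM + 1) ranged from -3.14 (Hba-a1) to -2.58 (Alas2), and the summed hemoglobin TPM was 8.13-fold lower, and 4.71-fold lower without STING-/- heart 3. The groups did not overlap for any of the 5 genes, while 4.88% of tested genes were lower without overlap. By limma, 0.0724% of all tested genes passed in either direction.

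Between the cisplatin groups, the values of STING-/-+CDDP and CDDP hearts were intermixed. This comparison shares the CDDP hearts with the one that chose the genes, so its intervals are a description and not a test. The difference in log2(TPM + 1) ranged from -0.69 (Hba-a2) to 0.11 (Hbb-bt and Alas2), with intervals from -2.56 to 1.32 for Hba-a1 and -0.88 to 1.11 for Alas2. The summed hemoglobin TPM was 1.43-fold lower in the STING-/-+CDDP group, and without CDDP heart 1 the log2 difference turned to 0.83 higher. The direction of this difference thus rests on a single heart. Its size was 3.10-fold lower without CDDP heart 3 and 2.16-fold lower without STING-/-+CDDP heart 3. The CDDP minus Saline difference was more negative than the STING-/-+CDDP minus STING-/- difference for every member, by 2.23 (Hba-a2) to 3.20 (Hbb-bt) on the log2 scale. Leaving out single hearts moved it by more than 1.5 times for Hba-a1, Hba-a2 and Hbb-bs. It moved less for Alas2 (2.12 to 2.98) and Hbb-bt (2.41 to 3.91). For Hba-a2 it was 1.16 without CDDP heart 3, and for Hbb-bs it ran from 1.43 (without CDDP heart 3) to 4.01 (without CDDP heart 1). This contrast uses the hearts that chose the genes and was not tested for them.

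**Figure D2:**
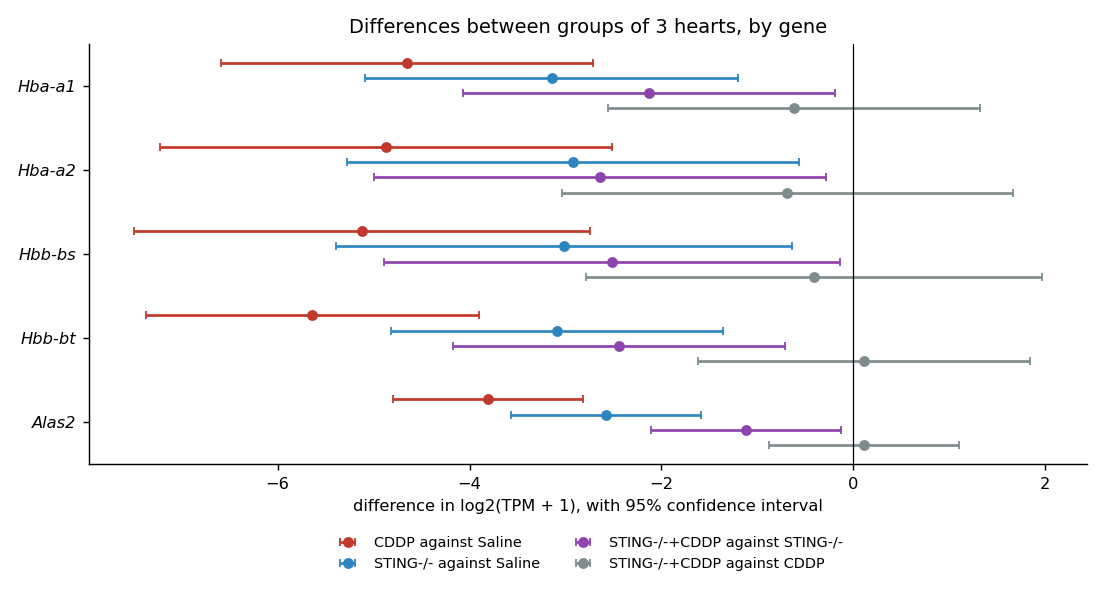
Difference in log2(TPM + 1) between groups (horizontal axis) for each gene (vertical axis). Points are estimates of the limma model with 95% confidence intervals, 3 hearts a group. Only STING-/-+CDDP against STING-/- was tested for these genes. The other comparisons use hearts that chose the genes, so their intervals are a description, and an interval that leaves out 0 is not a test. The differences in CDDP against Saline lie between -5.64 and -3.81 and those in STING-/-+CDDP against CDDP between -0.69 and 0.11.

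The hemoglobin genes varied between hearts of a group far more than most genes. Their residual SD on the log2 scale was 1.30 (Hba-a1), 1.58 (Hba-a2), 1.60 (Hbb-bs) and 1.16 (Hbb-bt), and 0.64 for Alas2, beside a median of 0.264 over all tested genes. Between 93.0% and 99.3% of tested genes varied less. The highest heart of a group exceeded the lowest in summed hemoglobin TPM by 30.3-fold in the CDDP group, 5.55-fold in STING-/-, 3.80-fold in STING-/-+CDDP and 2.25-fold in Saline. The 5 genes departed from their group means together. Over the 12 hearts, Pearson's r of these departures was between 0.935 and 0.991 for pairs of globin genes and between 0.750 and 0.908 for Alas2 with a globin gene. All genes of a heart share a library and a scale to the same total, and the near-identical genes share reads.

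CDDP heart 1 stood apart in other blood markers. Its neutrophil markers summed to 1146 TPM, beside 29.2 and 47.1 in the other CDDP hearts and 5.87 to 94.3 in the remaining 9 hearts. Its platelet markers summed to 206 TPM, beside 28.2 to 95.1 in all other hearts. The 5 monocyte markers did not move together. Their sum of 200.3 TPM was the highest of all hearts, of which Chil3 gave 163 TPM, whereas F13a1 was at 6.53 TPM beside 30.0 to 52.8 TPM in the Saline hearts. The part of other blood cells in its hemoglobin values was not tested.

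The make-up of hemoglobin mRNA changed little compared with its level. The alpha genes gave 46.9% to 53.2% of hemoglobin TPM in 11 of the 12 hearts and 60.3% in CDDP heart 3, which had the lowest level. Hbb-bt gave 11.2%, 12.1% and 13.8% of beta chain TPM in the Saline hearts and 10.3% to 11.9% in 8 of the other 9. The exception was CDDP heart 1, at 3.45%. Without this heart, the mean Hbb-bt share differed by 1.29 percentage points between CDDP and Saline, and with it by 3.83.

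Hba-a1 gave 25.2% to 42.2% of alpha chain TPM, with both ends of this range among Saline hearts. The STING-/- hearts had 25.5%, 28.7% and 28.8%, and the STING-/-+CDDP hearts 37.2%, 39.4% and 28.8%. These groups did not overlap, by a narrow margin, with 28.78% the highest and 28.82% the lowest (two-sided exact permutation p = 0.1, which is the smallest possible, and 0.5 adjusted over 5 tests). For the Hbb-bt share, the alpha share and Alas2 per hemoglobin the same test gave an exact p of 0.3, 0.8 and 0.4. Alas2 was at 2.69 to 3.10 TPM per 1000 TPM of hemoglobin in the Saline hearts. In the other hearts it ran from 0 and 0.622 (CDDP hearts 3 and 1) to 4.91, where the low TPM of Alas2 makes the ratio imprecise.

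**Figure D3:**
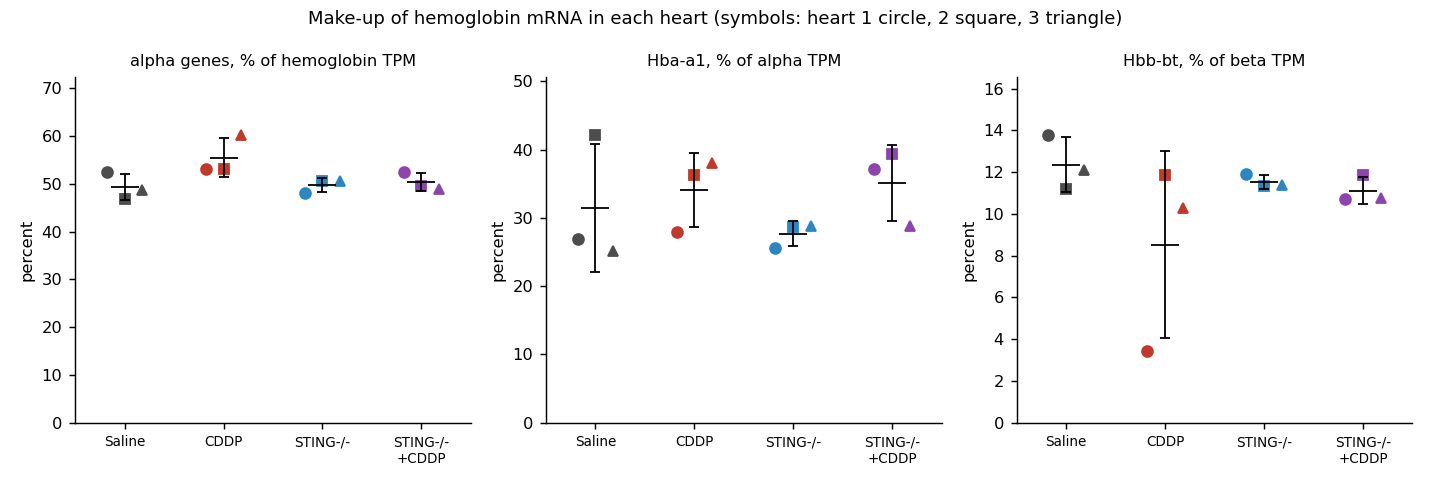
Share of the alpha genes in hemoglobin TPM, of Hba-a1 in alpha chain TPM and of Hbb-bt in beta chain TPM, in percent (vertical axes, from 0), by group. Symbols are single hearts and bars are mean ± SD (n = 3). For the alpha share and the Hbb-bt share, most hearts lie close together although their hemoglobin levels differ widely. The Hba-a1 share is more spread, from 25.2% to 42.2%. CDDP heart 1 has the lowest Hbb-bt share, 3.45%.

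The Saline hearts were the highest on other scales too. Divided by the TPM of Mb, which encodes myoglobin, the oxygen-binding globin of heart muscle, summed hemoglobin was 0.442 to 0.707 in the Saline hearts and 0.0055 to 0.181 in the others. After scaling by the median of ratios, it was 3513 to 10268 in the Saline hearts and 34.8 to 1413 in the others. Mb itself was at 9343 to 13145 TPM in the Saline hearts and 7037 to 9082 TPM in the CDDP hearts, and it fell in the CDDP group (log2 difference -0.56, SE 0.14, adjusted p = 0.0217 by limma). The Mb call was lost without Saline heart 1 or 3 or CDDP heart 1 or 3 (limma adjusted p from 0.0588 to 0.0897) and in 4 other settings. These were the median of ratios (log2 difference -0.55, limma adjusted p = 0.119), quantile normalization (-0.31, limma adjusted p = 0.133), no filter (limma adjusted p = 0.177) and only the compared groups (limma adjusted p = 0.105).

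Genes that mark red cells themselves were next examined. None of the 7 other globin genes listed in the table, which include embryonic and theta globins, passed the filter. The highest value was 0.48 TPM, for the theta globin Hbq1b in STING-/-+CDDP heart 3. Slc4a1, which encodes the anion exchanger band 3, was at 0.71, 0.15 and 0.32 TPM in Saline hearts and at 0 to 0.06 in all others. Slc4a1 is below the filter and untested, and its Saline hearts were highest as for the hemoglobin genes.

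Of the factors that drive the red cell program, Gata1 and Klf1 were near 0. Gata1, the leading transcription factor of the lineage, did not exceed 0.36 TPM in any heart, and Klf1, which activates the beta globin gene, did not exceed 0.28. Of 12 erythroid transcription factors 6 were tested, most of which are also made outside the lineage, with values of up to 55.8 TPM (Ldb1). Among these, Lyl1 fell in the CDDP hearts (log2 difference -1.49, SE 0.22, limma adjusted p = 0.00187). Lyl1 is also made in endothelium. The median of the 6 was -0.51.

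A list of 76 other red-cell and heme genes, of which 72 are in the table and 45 were tested, gave 13 lower and 3 higher in CDDP against Saline. This is 35.6% of the 45 tested, with a median difference of -0.19, beside 18.9% and -0.003 for all tested genes. Fitting only the compared groups left 8 lower and none higher, with 5.95% of all tested genes called, and leaving out Saline heart 1 left 8 lower and 1 higher, with 8.98% of all tested genes called. In STING-/-+CDDP against STING-/-, 2 were lower and none higher, 4.44% of the 45 beside 0.934% of all tested genes. In STING-/- against Saline and in STING-/-+CDDP against CDDP the count was 0 by limma, where 0.0724% and 1.22% of all tested genes passed. In the interaction of cisplatin and genotype the count was also 0, and 0.00724% of all tested genes passed.

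Few of these genes had the pattern of hemoglobin, with every Saline heart above the 9 others. This was the case for 2 of the 45 tested genes and 2 of the 27 below the filter, beside 1.56% of all tested genes. Among them were Bpgm, which was tested, and Slc4a1, which was below the filter. Bpgm encodes bisphosphoglycerate mutase, which makes the small molecule that lowers the oxygen affinity of hemoglobin. It was at 16.04 to 18.4 TPM in Saline and 6.68 to 12.8 TPM in the other hearts, and fell in CDDP against Saline (log2 difference -1.06, SE 0.17, limma adjusted p = 0.00229).

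Of the 22 reticulocyte and maturation genes, 15 were tested. In CDDP against Saline 5 fell and 1 rose, and the median was -0.05. Tfrc, the transferrin receptor that brings iron into cells, was at 58.7, 10.97 and 17.9 TPM in Saline and 2.68, 1.28 and 2.89 in CDDP. It was at 14.6, 20.2 and 43.6 TPM in STING-/- and 1.89, 2.08 and 1.70 in STING-/-+CDDP. Unlike hemoglobin, Tfrc did not separate the groups without cisplatin, and it fell with cisplatin both in wild type (log2 difference -2.90, SE 0.52, limma adjusted p = 0.0041) and in STING-/- mice (-3.09, SE 0.52, limma adjusted p = 0.024). The call in STING-/- mice was lost when any 1 of the 6 hearts without STING was left out, with adjusted p between 0.0541 and 0.106 by limma.

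The erythropoietin receptor gene Epor fell in CDDP against Saline (log2 difference -1.07, SE 0.21, limma adjusted p = 0.00658) from 1.09 to 2.12 TPM to 0.11 to 0.41 TPM. STING-/- hearts had 0.62 to 0.90 TPM of Epor and STING-/-+CDDP hearts 0.69 to 1.40 TPM (log2 difference 0.12, limma adjusted p = 0.854). Ube2l6, a ubiquitin-conjugating enzyme that is also induced by interferon, fell from 21.4 to 30.6 TPM in Saline to 7.14 to 9.14 TPM in CDDP (log2 difference -1.56, limma adjusted p = 0.00144). Mkrn1, a ubiquitin ligase, was the gene of this list that rose (log2 difference 0.49, limma adjusted p = 0.0349). Its call was lost without any Saline heart, CDDP heart 2 or 3, or STING-/-+CDDP heart 2 (limma adjusted p from 0.0501 to 0.102), whereas those of Bpgm, Tfrc, Epor and Ube2l6 in this comparison held with each heart left out.

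Heme synthesis is a pathway of all tissues, and its 13 genes were all tested. In CDDP against Saline 4 fell and 1 rose, with a median of -0.35. Alas1 was at 312, 179 and 229 TPM in Saline, 74.3, 106 and 105 in CDDP, 229, 283 and 399 in STING-/- and 74.4, 129 and 84.3 in STING-/-+CDDP. It fell with cisplatin in wild type (log2 difference -1.31, SE 0.27, limma adjusted p = 0.00818) and in STING-/- mice (-1.66, SE 0.27, limma adjusted p = 0.0232). The call in STING-/- mice was lost on leaving out STING-/-+CDDP heart 1 or 3 or any STING-/- heart (limma adjusted p between 0.0521 and 0.106). Alas2 and Alas1 thus had different orders of groups: STING-/- hearts overlapped the Saline hearts for Alas1 and lay below all of them for Alas2. The others that fell in CDDP against Saline were Uros, a middle enzyme of the pathway (-0.63, limma adjusted p = 0.0485), Abcb10, a mitochondrial transporter (-0.56, limma adjusted p = 0.0203), and Tmem14c, a mitochondrial membrane protein (-0.50, limma adjusted p = 0.024). Slc25a38, the mitochondrial carrier of glycine for the Alas step, rose (0.59, limma adjusted p = 0.0147). The call of Uros was lost without any heart but CDDP heart 2 (limma adjusted p from 0.0528 to 0.138). That of Abcb10 was lost without Saline heart 1 or CDDP heart 1 (limma adjusted p 0.0929 and 0.0509), and that of Tmem14c without Saline heart 1 or CDDP heart 1 or 2 (limma adjusted p from 0.0549 to 0.0877).

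Of 19 membrane and skeleton genes 11 were tested, and 3 fell and 1 rose in CDDP against Saline with a median of 0.08. Ank1, whose ankyrin ties the skeleton to the membrane in red cells and also in muscle, was at 236 to 270.4 TPM in Saline and 66.3 to 127 TPM in CDDP (log2 difference -1.44, SE 0.21, limma adjusted p = 0.00157). It was at 197 to 269.7 TPM in STING-/- and 150.1 to 183 TPM in STING-/-+CDDP, levels well above those of Slc4a1. The glycophorin C gene Gypc also fell (-0.51, limma adjusted p = 0.0328). Rhd, which encodes the Rh blood group antigen, rose from 1.46 to 3.32 TPM to 3.71 to 10.0 TPM (1.27, SE 0.31, limma adjusted p = 0.0154). With Ank1 the call held when each heart was left out. It was lost for Rhd without Saline heart 1 or CDDP heart 3 (limma adjusted p 0.0673 and 0.0515). For Gypc it was lost without Saline heart 1 or 2 or any CDDP heart (limma adjusted p from 0.0516 to 0.0948).

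Among 10 genes that clear free hemoglobin and heme, 9 were tested, and 2 rose and none fell in CDDP against Saline. Hmox1, the heme oxygenase that breaks down heme and is also induced by oxidative stress, was at 10.5, 20.3 and 14.4 TPM in Saline and 101, 40.1 and 35.4 in CDDP (log2 difference 1.78, SE 0.37, limma adjusted p = 0.00849, and 0.0519 when only the compared groups were fitted). It was at 16.8 to 27.2 TPM in STING-/- and 22.4 to 37.0 TPM in STING-/-+CDDP (log2 difference 0.50, limma adjusted p = 0.603). Hp encodes haptoglobin, the plasma protein that binds free hemoglobin. It was at 1.12, 17.5 and 0.92 TPM in Saline and 43.4, 13.2 and 31.9 TPM in CDDP, which overlap (log2 difference 2.70, SE 0.83, limma adjusted p = 0.0429). The STING-/- hearts had 27.35, 87.5 and 15.1 TPM of Hp and the STING-/-+CDDP hearts 20.3, 20.3 and 35.8 TPM. The call of Hp was lost without Saline heart 1 or 3, CDDP heart 1 or 3, STING-/- heart 1 or any STING-/-+CDDP heart (limma adjusted p from 0.0539 to 0.150). The call was also lost with no filter (limma adjusted p = 0.105), only the compared groups (limma adjusted p = 0.1075) and the replicate block (limma adjusted p = 0.0562).

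**Figure D4:**
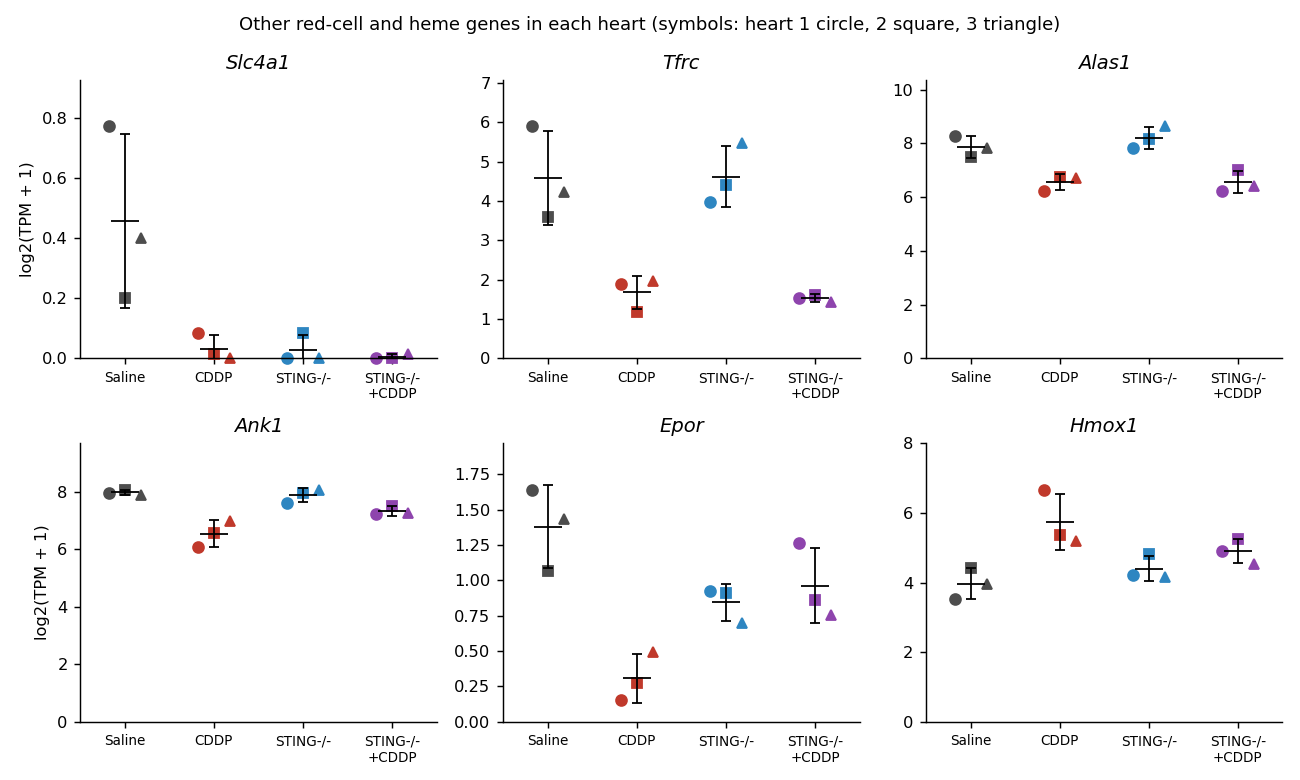
Level of 6 other red-cell and heme genes as log2(TPM + 1) (vertical axes, from 0, each with its own range) in the 4 groups. Symbols are single hearts and bars are mean ± SD (n = 3). Slc4a1 is highest in the 3 Saline hearts, whereas Tfrc and Alas1 are high in both groups without cisplatin.

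Markers of some other cells in the tissue moved with hemoglobin in part. The 8 B cell markers summed to 13.7 to 28.3 TPM in Saline and 10.3 to 17.9 TPM in STING-/- hearts, and to 1.08 to 1.46 TPM in CDDP and 2.07 to 2.20 TPM in STING-/-+CDDP hearts. They were thus low in both cisplatin groups, while hemoglobin was also low in STING-/- hearts. The 9 T cell markers summed to 6.14 to 17.3 TPM in Saline, 2.43 to 2.99 in CDDP, 2.78 to 8.18 in STING-/- and 1.21 to 2.24 in STING-/-+CDDP. Of these, Cd2, Cd3d and Trbc2, named after their values were seen, had every Saline heart above the 9 others. The other T cell markers did not, and 1.56% of all tested genes did. Cd2 and Cd3d were below the filter. For Trbc2 the margin was narrow, with 1.28 TPM in the lowest Saline heart and 1.26 TPM in the highest other heart. The 7 endothelial markers summed to 621 to 727 TPM in Saline, 395 to 520 TPM in CDDP, 409 to 583 TPM in STING-/- and 412 to 607 TPM in STING-/-+CDDP hearts. Their sum was thus higher in every Saline heart than in the 9 others, as for hemoglobin, with a smaller distance between the groups, although none of the 7 genes was so by itself. By limma, 4 of the 7 fell in CDDP against Saline. In STING-/- against Saline the count was 0 by limma, also at an unadjusted p under 0.05. The 8 cardiomyocyte markers summed to 36093 to 51541 TPM in Saline and 27010 to 53570 TPM in the other hearts, so heart muscle RNA was abundant in every library. The part of these cells in the hemoglobin values was not tested.

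**Figure D5:**
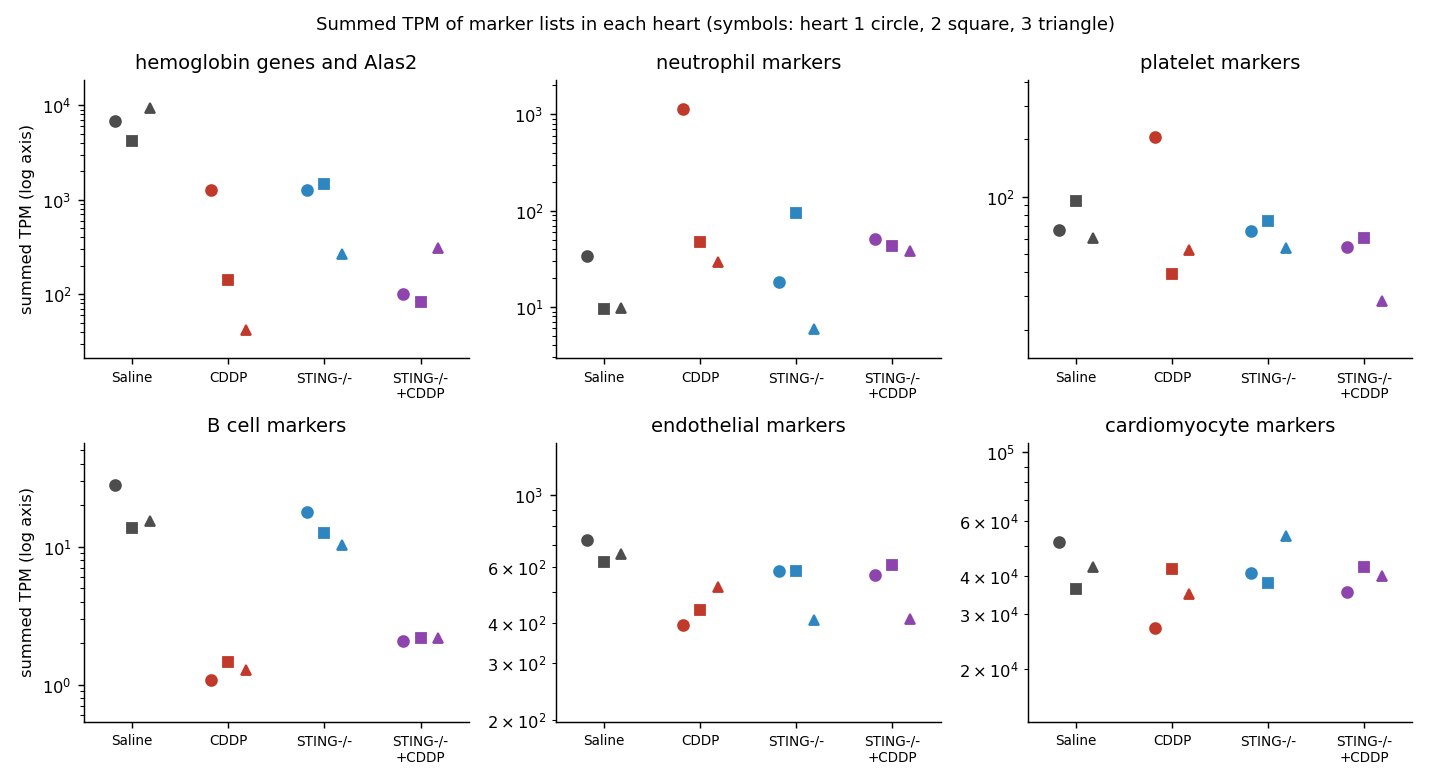
Summed TPM (log axis, each panel with its own range) of the 5 genes and of 5 lists of markers of other cells, with 1 symbol a heart. CDDP heart 1 is highest for neutrophil and platelet markers. The sum of the B cell markers, which is mostly Ighm, is low in both cisplatin groups.

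Outside the set, the genes whose departures from the group means were most like the mean of the 5 members over the 12 hearts were Gm12167 (r = 0.886), Cldn5 (r = 0.871), Qtrt2 (r = 0.865) and Mrgbp (r = 0.842). They were followed by Gm9522, Retnlg, S100a8, Tnfaip8l2, Slfn1 and an unnamed locus, with r from 0.837 to 0.820. These genes were picked as the highest of 13815 tested genes over only 12 hearts. Unrelated genes picked in this way can also reach a high r, so the list is a description. Retnlg and S100a8 are neutrophil genes, and both were highest in CDDP heart 1, at 217 and 316 TPM. Cldn5, a tight junction gene of endothelium, was at 115 TPM in CDDP heart 1 and 13.4 TPM in STING-/- heart 3. For comparison, r was 0.838 for Alas2 and 0.980 to 0.991 for the globin genes, which are part of the mean.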

How the data were processed

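RNA was extracted with TRIzol from hearts, and Illumina libraries were sequenced by a company. Values were deposited by the authors as TPM for each gene in each heart, and fastp, HISAT and RSEM with build GRCm38.p5 are named in the submitters' processing notes, without versions. TPM give no read counts, so the depth per heart is unknown and no interval for counting error could be given. Columns summed to between 999999 and 1000001, with 19680 to 21024 genes above 0. The 4 deposited columns of group means were not used, and columns of the authors' own comparisons were not used.

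Groups came from the sample labels. TPM were transformed to log2(TPM + 1). Genes reaching 1 TPM in 3 or more hearts, 13815 in all, were fitted with limma 3.58.1 (R 4.3.3) in a group means model of all 12 hearts (eBayes with trend, two-sided, Benjamini-Hochberg over all tested genes, threshold 0.05). Single values were compared with exact permutation tests (scipy 1.17.1). Tested on simulated data for STING-/-+CDDP against STING-/-, where 200 of 13815 genes had a log2 change of 2, 89% of these were recovered, and 2.73% of calls were false. The median SE of a difference was 0.216, beside 0.45 (Alas2) to 1.09 (Hbb-bs) for the members. The changed genes were drawn at random from all tested genes, so the 89% does not describe genes as variable as the members. Nothing states that the hearts of a group came from separate cages or litters, and p-values measure the spread between these hearts.

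The genes of the set and all lists were chosen with earlier results of these data known. Named are the 5 genes, up to 4 genes a list with the largest change among those that passed in either cisplatin comparison (where none passed, the 2 with the highest TPM), Alas1, Slc4a1, Gata1, Klf1, Tfrc, Epor and Mb, and the 10 genes most like the members. Some genes that the rule names are not reported here. Bpgm, Mkrn1 and Tmem14c were chosen after their values were seen. Promoter windows came from RefSeq. As alternatives, the pseudocount was set to 0.1, the filter was dropped or raised to 5 TPM, only the compared groups were fitted, and TPM were scaled by the median of ratios or without the mitochondrial or the 4 hemoglobin genes. Other alternatives were quantile normalization, eBayes without trend, arrayWeights, a replicate block and each heart left out in turn.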

Additional observations from a re-analysis of the deposited data

How the results depend on the processing

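The difference of each hemoglobin gene and of Alas2 in CDDP against Saline and in STING-/-+CDDP against STING-/- stayed negative under every alternative run. In STING-/-+CDDP against STING-/-, 4 of the 5 passed with arrayWeights (4.44% of all genes, beside 0.934% in the reported fit) and none under any other alternative, hearts left out included. Here Hbb-bt ranged from -3.23 to -2.03 on the log2 scale, with limma adjusted p from 0.0225 to 0.483.

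The counts of other red-cell genes stand beside the share of all genes called in the same fit. In CDDP against Saline the count went from 16 (18.9%) to 8 with only the compared groups (5.95%), and 9 (8.98%, without Saline heart 1) to 17 with a heart left out. In STING-/-+CDDP against STING-/- it went from 2 (0.934%) to 0 without a filter (0.166%), 4 with arrayWeights (4.44%) and 0 to 2 with a heart left out. In STING-/- against Saline it was 1 with arrayWeights (0.21%) and 0 to 1 with a heart left out. In STING-/-+CDDP against CDDP it went from 0 (1.22%) to 1 with the filter at a TPM of 5 (2.61%) and 3 with each of the median of ratios (4.74%), quantile normalization (4.86%) and TPM rescaled without mitochondrial genes (2.26%). The cause was not tested.

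In STING-/-+CDDP against STING-/-, where they did not pass, 4 genes changed sign. The difference of Gypc turned to 0.0822 (median of ratios) and 0.0571 (quantile normalization) and ran from -0.122 to 0.0158 with a heart left out. With a heart left out, Epor ran from -0.0338 to 0.219, Hp from -0.970 to 0.259 and Mb from -0.0011 to 0.133. The median of all genes was -0.11 in this comparison as deposited.

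Hearts with the same number are different animals, and 18 pairs of them correlated by -0.33 to 0.26. The 36 pairs with different numbers correlated by -0.31 to 0.43. Hearts of the same number were thus not treated as pairs, though a weak effect shared by number could go unseen. With the replicate block, 0 of the 5 genes passed in STING-/-+CDDP against STING-/-, and the other red-cell genes gave 14, 2, 0, 0 and 0 in the order CDDP against Saline, STING-/-+CDDP against STING-/-, STING-/- against Saline, STING-/-+CDDP against CDDP and interaction. The unknown depth limits what can be said of Alas2, at or below 3.93 TPM outside the Saline hearts, and of Slc4a1, below 1 TPM in every heart.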
